A study of Mus musculus with 16 samples.

Results

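Transcript levels were examined for 7 genes that carry dietary sugars across the intestinal epithelium or start the breakdown of fructose: the facilitative transporters Slc2a1, Slc2a2, Slc2a5 and Slc2a7, the sodium-coupled transporters Slc5a1 and Slc5a9, and the fructose kinase Khk. They were chosen by symbol, with earlier results of these data known, from the 24421 genes counted in each library. All 7 passed the filter on low counts, which left 13429 genes for testing. The libraries were bulk RNA sequencing of epithelium released with EDTA from wild-type mice of the C57BL6/J strain, with no treatment in the labels. Jejunum and ileum, cut from the centre of the middle and of the distal part of the small intestine, were collected from each of 4 mice at postnatal day 6 (P6), before weaning, and 4 mice at P36, after weaning. Each of the 4 groups (P6 jejunum, P6 ileum, P36 jejunum and P36 ileum) therefore held 4 libraries, from 2 male and 2 female mice. Replicate numbers name the mouse, so that replicate 1 of the P6 jejunum and of the P6 ileum came from the same animal.

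Glucose and galactose are taken up at the brush border of enterocytes against their gradient by the sodium-coupled transporter SGLT1, the product of Slc5a1, with the gradient kept by the sodium pump. Fructose enters by facilitated diffusion through GLUT5 (Slc2a5), and sugars leave across the basolateral membrane through GLUT2 (Slc2a2). Ketohexokinase (Khk) phosphorylates fructose inside the cell, and its products are then fed into glycolysis. Before weaning the main sugar is milk lactose, split into glucose and galactose by lactase, and after weaning starch and sucrose take its place.

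The count per library ranged from 12159237 to 25947276. Levels are given as CPM, counts scaled to a common library size with trimmed mean of M-values (TMM) factors. The 5 epithelial markers (Epcam, Cdh1, Vil1, Krt8 and Krt20) were present in every group, with summed levels of 3661 to 5717 CPM at P6 and 10360 to 15670 CPM at P36. The 4 enterocyte markers (Fabp2, Apoa4, Anpep and Alpi) summed to 72450 to 92760 CPM in the P6 jejunum, 6407 to 14450 CPM in the P6 ileum, 18840 to 27750 CPM in the P36 jejunum and 2894 to 22050 CPM in the P36 ileum. In bulk epithelium, fewer cells of a type and less RNA per cell cannot be told apart. Several ileum libraries stood apart from their group. Replicate 2 of the P6 ileum held 363 CPM of smooth muscle and fibroblast markers, against 19.7 to 37.0 CPM in the other P6 ileum libraries. Replicate 4 of the P6 ileum had the lowest enterocyte sum of its group. The P36 ileum libraries had enterocyte sums of 22050, 8043, 2894 and 9333 CPM in replicates 1 to 4, and replicate 3 also had 14620 CPM of Paneth cell markers, the highest of its group. Each regional comparison, each ileal comparison and the interaction were therefore fitted again without these libraries.

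The 7 genes lie on 3 chromosomes of mm10 (GRCm38). Slc5a1 spans 15 exons at chr5:33104219-33162699 and Khk 8 exons at chr5:30921895-30931246. Slc2a2 spans 11 exons at chr3:28697903-28728360. Chromosome 4 holds the other four, Slc2a1 (chr4:119108745-119137329, 10 exons), Slc2a5 (chr4:150119344-150144168, 14 exons), Slc2a7 (chr4:150148972-150168482, 12 exons) and Slc5a9 (chr4:111875377-111902796, 15 exons, the only one on the minus strand). Slc2a5 and Slc2a7 are neighbours in the same orientation, with 4803 bases between them. Counts were taken over all exons of a gene, so isoforms were summed. For Khk this matters because its isoforms differ by mutually exclusive exons: the count annotation held the exon at chr5:30927022-30927156 but not the preceding alternative exon of 135 bases at chr5:30926688-30926822, which GENCODE lists.

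Sequence upstream of the start site was available from RefSeq (GRCm38.p6) for 6 of the 7 genes, Slc5a9 being the exception. The stretches before the first annotated base are printed here for the main apical and basolateral transporter genes (Slc5a1, Slc2a5 and Slc2a2) and for Slc2a7, the neighbour of Slc2a5, all on the plus strand and 5′ to 3′. They are chr5:33103969-33104218 for Slc5a1, chr3:28697653-28697902 for Slc2a2, chr4:150119094-150119282 for Slc2a5 and chr4:150148637-150148833 for Slc2a7.
Slc5a1: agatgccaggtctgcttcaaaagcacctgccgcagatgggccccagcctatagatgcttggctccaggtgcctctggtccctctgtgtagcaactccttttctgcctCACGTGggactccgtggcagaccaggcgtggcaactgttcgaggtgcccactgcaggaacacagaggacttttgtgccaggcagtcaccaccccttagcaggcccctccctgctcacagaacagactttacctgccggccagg
Slc2a2: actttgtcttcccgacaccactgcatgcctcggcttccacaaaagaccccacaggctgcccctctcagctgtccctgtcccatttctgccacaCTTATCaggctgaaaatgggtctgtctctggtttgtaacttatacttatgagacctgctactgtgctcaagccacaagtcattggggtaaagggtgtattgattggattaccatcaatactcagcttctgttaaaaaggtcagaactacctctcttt
Slc2a5: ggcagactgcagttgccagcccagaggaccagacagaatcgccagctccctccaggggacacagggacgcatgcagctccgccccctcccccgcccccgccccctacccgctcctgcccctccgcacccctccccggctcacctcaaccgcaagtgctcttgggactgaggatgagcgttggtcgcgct
Slc2a7: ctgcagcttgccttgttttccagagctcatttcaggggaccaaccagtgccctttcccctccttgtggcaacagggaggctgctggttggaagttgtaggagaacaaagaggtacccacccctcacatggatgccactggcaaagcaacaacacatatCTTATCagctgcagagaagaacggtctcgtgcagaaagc
Capitals mark matches to GATAAG (the core bound by GATA factors) or CACGTG (an E-box), searched on both strands. These motifs share no overlapping match and were chosen after the sequences had been read. Within the 250 bases before the RefSeq start, GATAAG occurred on the minus strand in Slc2a2 (152 bases before the start) and in Slc2a7 (87 bases before it), which is 2 of 6 genes against 6.55% of 32851 mouse promoters. CACGTG occurred in Slc5a1 and Khk, 2 of 6 genes against 6.02%. These are matches of letters and say nothing of binding.

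Region was compared at each age, age in each region, and the regional difference between the ages. For the last, called the interaction, the log2 fold change of jejunum over ileum at P36 was subtracted from that at P6. One edgeR quasi-likelihood fit gave all 5 comparisons, with Benjamini-Hochberg adjusted p-values over all 13429 genes. A gene passed at an adjusted p below 0.05. At P6, 6 of the 7 genes were higher in the jejunum and 1, Slc2a1, was higher in the ileum, where 25.9% of all tested genes passed, 11.1% as higher and 14.8% as lower in the jejunum. At P36 the same 6 genes were higher in the jejunum and none passed as higher in the ileum, against a background of 16.1%, 8.3% as higher and 7.8% as lower in the jejunum. From P6 to P36, 4 genes rose and 1 fell in the jejunum (background 51.6%, with 24.7% rising and 26.9% falling). In the ileum 4 rose and 1 fell (background 55.7%, with 25.5% rising and 30.1% falling). The interaction was passed by 1 gene, Slc2a2 (background 8.69%). With the added requirement of an absolute log2 fold change above 2, 5 genes were called between the regions at P6 (background 6.5%) and 4 at P36 (3.6%), and 4 were called with age in each region (16.4% in both). The libraries of the compared groups did not overlap for 6 genes between the regions at P6 (30.1% of all tested genes) and for 7 at P36 (26.9%), and with age for 6 in jejunum (63.8%) and 4 in ileum (44.4%). The median log2 fold change of the 7 genes was 2.13 and 2.05 for jejunum over ileum at P6 and P36, and 2.07 and 1.63 for P36 over P6 in the jejunum and ileum, where the median of all tested genes lay between -0.05 and -0.01.

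Markers of other cell types also differed between the ages. The 5 goblet cell markers summed to 1689 to 2290 CPM in the P6 jejunum, 7552 to 8848 CPM in the P36 jejunum, 1987 to 4085 CPM in the P6 ileum and 9220 to 17910 CPM in the P36 ileum. The 4 Paneth cell markers summed to 23.0 to 806 CPM in the P6 jejunum, 4204 to 8416 CPM in the P36 jejunum, 44.0 to 653 CPM in the P6 ileum and 5245 to 14620 CPM in the P36 ileum. The 6 leukocyte markers went the other way, from 417 to 501 CPM at P6 to 5.91 to 57.7 CPM at P36 in the jejunum, and from 163 to 340 CPM to 4.26 to 23.8 CPM in the ileum. Nearly all of the P6 jejunum sum was Csf1r (415 to 498 CPM), whereas Ptprc, the general leukocyte marker, had jejunal means of 0.994 CPM at P6 and 12.4 CPM at P36. The part of these shifts in the changes of the 7 genes with age was not tested.

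**Figure D1:**
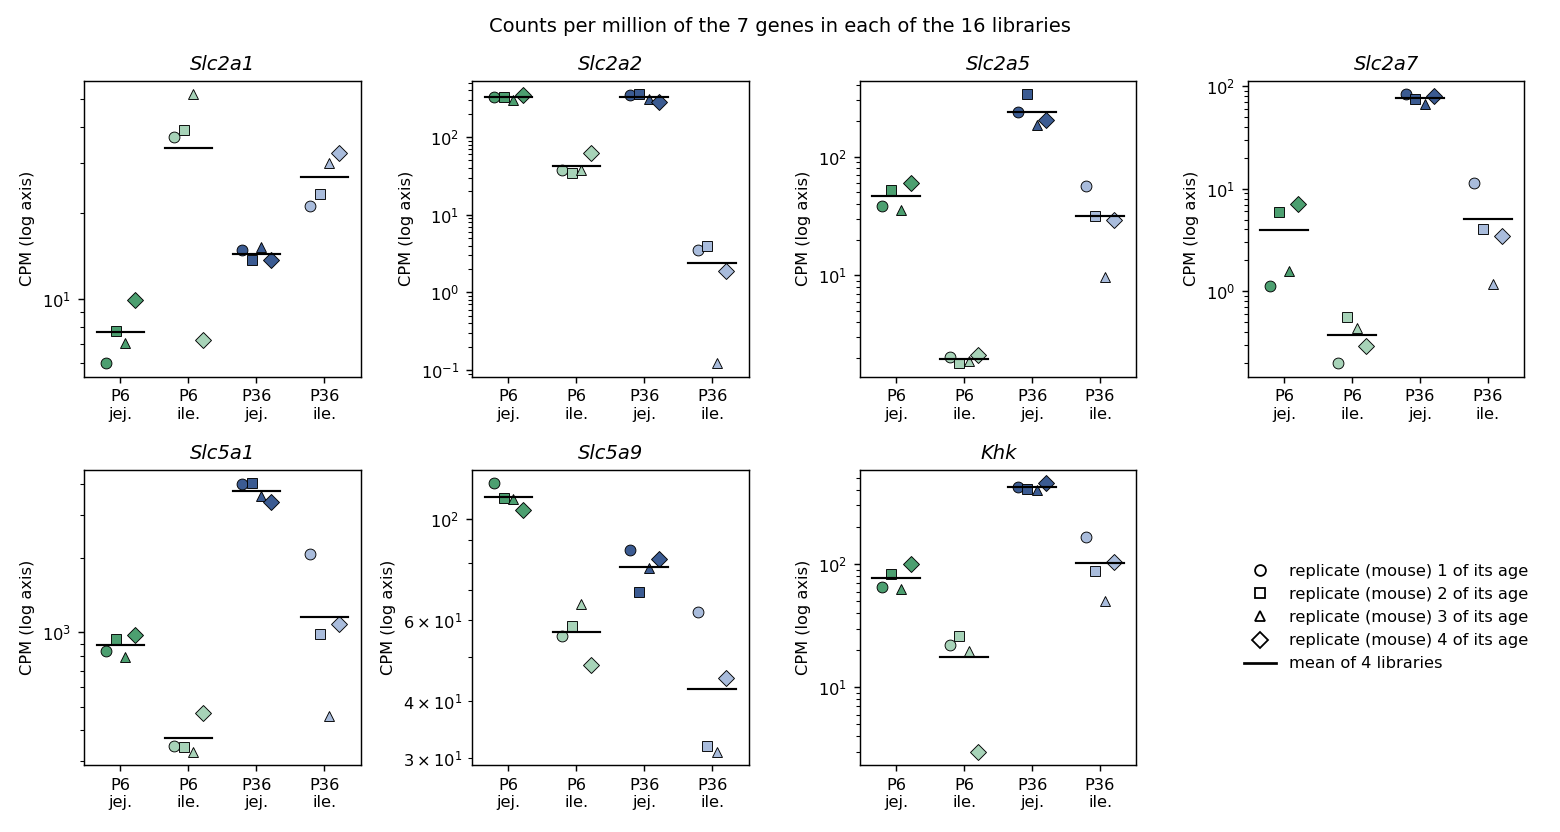
CPM (log axis) of the 7 genes in the 4 groups. Each symbol is a library, with the shape giving the mouse, and the bar is the mean of 4 libraries. Slc2a2 stayed near 325 CPM in the jejunum at both ages and fell to a mean of 2.37 CPM in the P36 ileum, whereas Slc2a1 was the only gene with its highest mean in an ileum group.

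**Figure D2:**
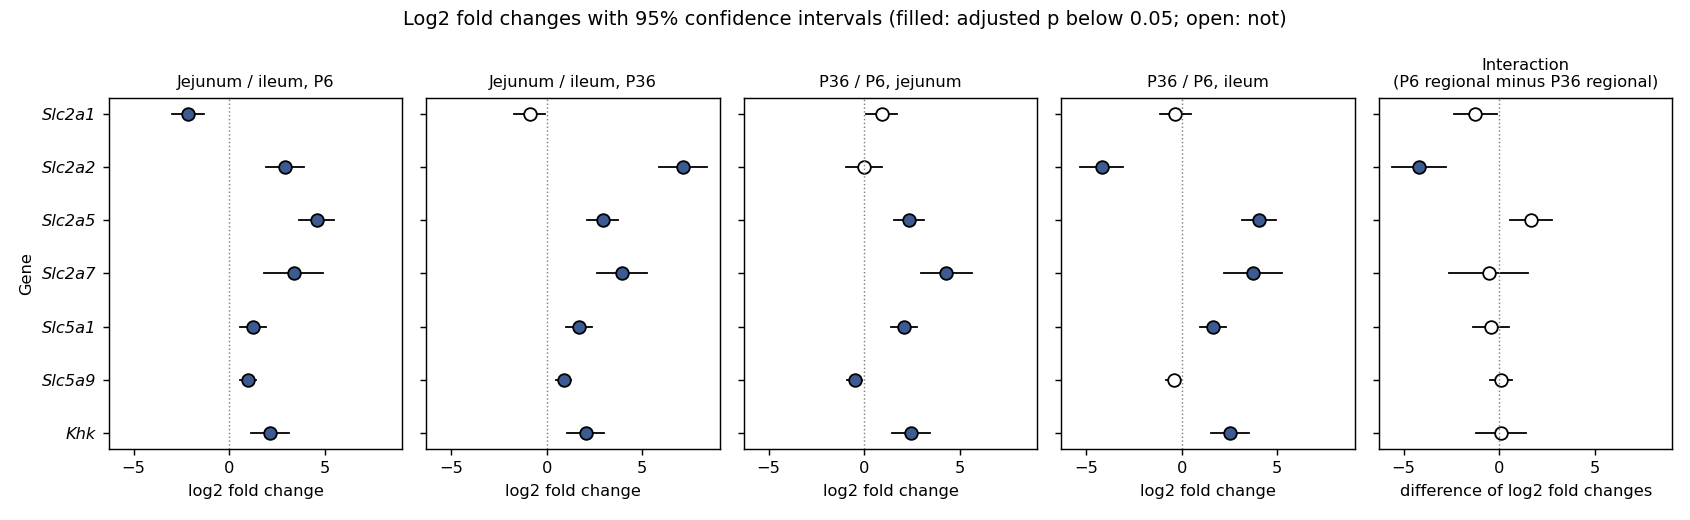
Log2 fold changes of the 7 genes in the 5 comparisons, with 95% confidence intervals. Filled symbols passed the adjusted p threshold and open symbols did not; the interaction panel shows a difference between log2 fold changes, where Slc2a2 lies at -4.19.

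Slc5a1, which encodes the main apical glucose and galactose transporter, was the most abundant of the transporters in every group on the length-scaled values given further on. Its level was 844, 939, 796 and 974 CPM in replicates 1 to 4 of the P6 jejunum and 346, 344, 327 and 472 CPM in the P6 ileum. At P36 it was 3988, 4024, 3568 and 3378 CPM in the jejunum and 2084, 985, 456 and 1082 CPM in the ileum. The jejunum libraries lay above all ileum libraries of the same age, and only the P36 ileum was widely spread, with its lowest library inside the P6 ileum range. Slc5a1 was 2.39-fold higher in the jejunum at P6 (log2 fold change 1.25, SE 0.31, adjusted p = 0.0077) and 3.25-fold higher at P36 (1.70, SE 0.32, adjusted p = 0.00157). It rose 4.21-fold with age in the jejunum (adjusted p = 5.43e-05) and 3.09-fold in the ileum (adjusted p = 0.000422). Its regional difference did not pass the test of a change with age (-0.45, 95% confidence interval -1.37 to 0.48, adjusted p = 0.575). The P6 regional call was lost when only the P6 mice sharing an ID stem were used (adjusted p = 0.0933 for mice 1 and 3, and 0.126 for mice 2 and 4, with the log2 fold change at 1.29 and 1.22).

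Slc5a9 encodes SGLT4, a sodium-coupled transporter known for carrying mannose. It was the only one of the 7 genes called as lower in the P36 than in the P6 jejunum. The libraries gave 120, 111, 111 and 105 CPM in the P6 jejunum and 55.5, 58.3, 65.0 and 47.9 CPM in the P6 ileum. The P36 values were 85.5, 69.4, 78.1 and 81.9 CPM in the jejunum and 62.8, 31.8, 30.9 and 44.8 CPM in the ileum. Regions did not overlap at either age, and in the ileum the ages overlapped. Slc5a9 was 1.97-fold higher in the jejunum at P6 (log2 fold change 0.98, SE 0.19, adjusted p = 0.00117) and 1.85-fold higher at P36 (0.89, SE 0.19, adjusted p = 0.00407). In the jejunum it fell by 0.51 on the log2 scale with age (adjusted p = 0.0322), a call that was lost in 6 of the 8 fits that left out 1 jejunum library, with adjusted p up to 0.116. In the ileum the change was -0.42 (adjusted p = 0.0709). It passed in 4 of 19 alternatives, among them the fit without replicate 1 of the P36 ileum (-0.66, adjusted p = 0.00169).

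Slc2a2 encodes GLUT2, the basolateral exit route for glucose, galactose and fructose. Its level in the P6 jejunum was 325, 327, 301 and 348 CPM, and in the P36 jejunum it was 347, 353, 312 and 285 CPM. The P6 ileum libraries held 37.9, 34.1, 37.4 and 61.5 CPM. In the P36 ileum the values were 3.54, 3.91, 0.122 and 1.90 CPM, from 160 counts in the whole group and 3 counts in replicate 3. The ages overlapped in the jejunum, while every P6 ileum library was above every P36 ileum library. The jejunal level did not differ detectably between the ages (log2 fold change -0.0044, 95% confidence interval -0.93 to 0.92, adjusted p = 0.995). The ileal level fell by 4.19 on the log2 scale (SE 0.52, adjusted p = 5.41e-06), which was 18.3-fold lower at P36. Jejunum over ileum was 7.62-fold at P6 (2.93, SE 0.47, adjusted p = 0.000272) and 139-fold at P36 (7.12, SE 0.58, adjusted p = 9.17e-07). The interaction was -4.19 (SE 0.67, adjusted p = 9e-04). Without replicate 3 of the P36 ileum it was -3.75 (adjusted p = 4.98e-06), and without replicate 4 of the P6 ileum -3.96 (adjusted p = 0.00057). The summed enterocyte markers had a median of 12210 CPM in the P6 ileum (6407 to 14450 CPM) and 8688 CPM in the P36 ileum (2894 to 22050 CPM). In the jejunum, where Slc2a2 did not detectably differ, their medians were 88700 CPM at P6 and 21800 CPM at P36. The part of these markers in the fall of Slc2a2 was not tested.

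Slc2a5 encodes GLUT5, the apical fructose transporter. In the P6 libraries it reached 38.2, 52.5, 35.8 and 60.5 CPM in the jejunum and 2.02, 1.81, 1.90 and 2.11 CPM in the ileum. In the P36 libraries it reached 236, 335, 186 and 204 CPM in the jejunum and 56.5, 31.7, 9.68 and 29.4 CPM in the ileum. No pair of compared groups overlapped, while the range of the P36 ileum crossed that of the P6 jejunum. Slc2a5 was 23.8-fold higher in the jejunum at P6 (log2 fold change 4.57, SE 0.43, adjusted p = 1.47e-06) and 7.56-fold higher at P36 (2.92, SE 0.38, adjusted p = 7.45e-05). It rose 5.14-fold with age in the jejunum (2.36, SE 0.37, adjusted p = 6.18e-05) and 16.2-fold in the ileum (4.02, SE 0.42, adjusted p = 8.11e-07). The regional difference was larger at P6 by 1.65 on the log2 scale, but this did not pass (SE 0.53, adjusted p = 0.0642). It passed with DESeq2 (adjusted p = 0.0194), without replicate 3 of the P36 ileum (1.96, adjusted p = 0.00345), and without replicates 1 and 3 of that group (1.61, adjusted p = 0.00695).

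Slc2a7 encodes GLUT7, a close relative of GLUT5 found in the intestine. The P6 jejunum libraries held 1.13, 5.93, 1.57 and 7.04 CPM, so that replicates 2 and 4 were well above replicates 1 and 3. The P6 ileum held 0.198, 0.560, 0.434 and 0.294 CPM, from 31 counts in all. At P36 the jejunum rose to 83.2, 74.8, 67.4 and 80.9 CPM and the ileum to 11.4, 4.08, 1.18 and 3.48 CPM. Neither region overlapped between the ages, and neither age overlapped between the regions. Slc2a7 was 10.3-fold higher in the jejunum at P6 (log2 fold change 3.37, SE 0.72, adjusted p = 0.00269) and 15.2-fold higher at P36 (3.93, SE 0.61, adjusted p = 0.000373). The rise with age was 19.5-fold in the jejunum (4.28, SE 0.62, adjusted p = 2.97e-05) and 13.2-fold in the ileum (3.72, SE 0.72, adjusted p = 0.000418). The interaction was -0.56 (95% confidence interval -2.64 to 1.51, adjusted p = 0.765). Without replicate 1 of the P36 ileum, the P36 regional difference was 4.74 (adjusted p = 7.86e-05) and the ileal rise 2.92 (adjusted p = 0.0016). With P6 mice 1 and 3 only, the P6 regional difference was 2.09 and no longer passed (adjusted p = 0.228), and the jejunal rise was 5.82, against 3.60 with P6 mice 2 and 4.

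Khk, the kinase that commits fructose to breakdown, followed the same order of groups as Slc5a1. Replicates 1 to 4 of the P6 jejunum held 65.9, 82.9, 62.8 and 100.1 CPM, and the P6 ileum held 22.1, 26.1, 19.8 and 2.99 CPM. The P36 jejunum was at 425, 407, 402 and 455 CPM and the P36 ileum at 165, 88.7, 50.4 and 104 CPM. All 4 tested pairs of groups were separated, although replicate 4 of the P6 ileum lay far below its group. Khk was 4.38-fold higher in the jejunum at P6 (log2 fold change 2.13, SE 0.46, adjusted p = 0.00293) and 4.13-fold higher at P36 (2.05, SE 0.46, adjusted p = 0.00581). It rose 5.42-fold with age in the jejunum (2.44, adjusted p = 0.000374) and 5.74-fold in the ileum (2.52, adjusted p = 0.000284). The interaction was 0.08 (95% confidence interval -1.24 to 1.41, adjusted p = 0.95). Without replicate 4 of the P6 ileum the regional difference at P6 was 1.78 (adjusted p = 0.000347) and the ileal rise 2.17 (adjusted p = 1.9e-05).

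Slc2a1 encodes GLUT1, a glucose transporter of most cell types that is not part of the classical apical route. In contrast to the other 6 genes, it was higher in the ileum. The P6 jejunum libraries had 5.98, 7.76, 7.04 and 9.91 CPM and the P6 ileum libraries 36.8, 39.2, 52.0 and 7.21 CPM. The P36 jejunum had 14.8, 13.8, 15.3 and 13.7 CPM and the P36 ileum 21.2, 23.3, 29.9 and 32.5 CPM. Replicate 4 of the P6 ileum was the only ileum library inside the range of the jejunum of its age. Slc2a1 was 4.40-fold higher in the ileum at P6 (log2 fold change -2.14, SE 0.40, adjusted p = 0.000883). Without replicate 4 of the P6 ileum it was -2.47 (adjusted p = 2.24e-07), and with P6 mice 2 and 4 only the call was lost (-1.40, adjusted p = 0.104). At P36 the groups did not overlap, but the difference of -0.89 (SE 0.38) did not pass (adjusted p = 0.131), except when only the 8 P36 libraries were fitted (-0.87, adjusted p = 0.0029). The jejunal rise of 0.91 (SE 0.39, adjusted p = 0.0607) also fell outside the threshold. It passed in 4 of 17 alternatives, among them DESeq2 (adjusted p = 0.0367), and in 0 of the 8 fits that left out 1 jejunum library. Over the 17 alternatives its adjusted p ran from 0.000315 to 0.243. The jejunum libraries did not overlap between the ages, with every P36 library above every P6 library.

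The ileal change of Slc2a1 with age moved with single P6 ileum libraries. It was -0.34 (SE 0.38, adjusted p = 0.465) with all libraries and -0.67 (adjusted p = 0.00428) without replicate 4 of the P6 ileum, the lowest library. Without replicate 3, the highest, it was -0.04 (adjusted p = 0.942). With P6 mice 2 and 4 only, the estimate was 0.23 (adjusted p = 0.694). The interaction of -1.25 (adjusted p = 0.179) became -1.58 (adjusted p = 0.000691) when replicate 4 was left out. In replicate 4 of the P6 ileum, Slc2a1, Slc5a9 and Khk were below the 3 other P6 ileum libraries. Slc2a2, Slc2a5 and Slc5a1 were above them, Slc2a5 only narrowly (2.11 against 1.81 to 2.02 CPM). The lactase gene Lct was at 1245 CPM against 367 to 667 CPM. The epithelial markers of replicate 4 summed to 3661 CPM against 5216 to 5717 CPM in the others. Its stem and proliferating cell markers summed to 678 CPM, the highest of the group, against 291 to 441 CPM. The part of these differences in the member values was not tested.

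The jejunum and ileum of each mouse were compared directly. Slc2a2, Slc2a5, Slc2a7, Slc5a1, Slc5a9 and Khk were each higher in the jejunum of 8 of 8 mice. Slc2a1 was higher in the ileum of 3 of 4 mice at P6 and 4 of 4 at P36. Within mice the ratio of jejunum to ileum for Slc5a1 ran from 2.07 to 2.73 at P6 and from 1.91 to 7.82 at P36. The older mice thus varied more for this gene. The Khk ratio varied more at P6, from 2.98 to 33.5 with the highest in mouse 4, than at P36 (2.57 to 7.96). The Slc2a5 ratio ran from 18.8 to 29.0 at P6 and from 4.17 to 19.2 at P36. For Slc2a2 it ran from 5.66 to 9.59 at P6, and at P36 it was 98.2, 90.3 and 150 in mice 1, 2 and 4, with mouse 3 resting on 3 ileal counts. The 2 ages did not overlap for Slc2a2.

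**Figure D3:**
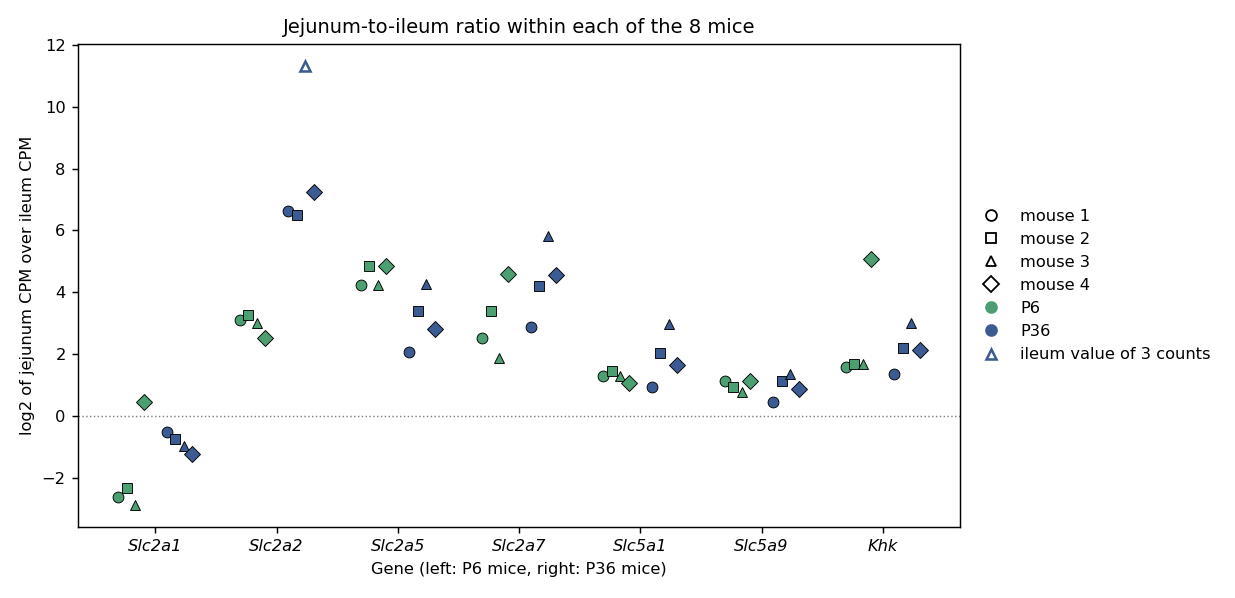
Log2 ratio of jejunum CPM to ileum CPM within each of the 8 mice, for the 7 genes (left of each gene P6, right P36; shapes give the mouse). All points lie above 0 except those of Slc2a1, where P6 mouse 4 is the one point above 0. The open symbol rests on 3 counts in the ileum.

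Levels were compared between genes as CPM per kilobase of exon (RPKM). The 6 transporters together reached 399 ± 33.1 RPKM in the P6 jejunum (mean ± SD, n = 4 in each group), 138 ± 13.6 in the P6 ileum, 1227 ± 111 in the P36 jejunum and 327 ± 184 in the ileum at P36. Slc5a1 made up 56.6 ± 0.746% of this sum in the P6 jejunum, 68.1 ± 5.57% in the P6 ileum, 77.5 ± 0.848% in the P36 jejunum and 88.2 ± 3.27% in the ileum at P36. It was the leading transporter in all 16 libraries, and its share lay higher in the P36 than in the P6 libraries of each region. Slc2a2 contributed 31.8 ± 1.11% in the P6 jejunum, 11.9 ± 2.21% in the P6 ileum, 10.3 ± 0.232% in the P36 jejunum and only 0.263 ± 0.209% in the ileum at P36. The jejunal share of Slc2a2 thus differed between the ages while its CPM did not detectably differ, as Slc5a1, Slc2a5 and Slc2a7 rose within the same sum. Slc2a5 and Slc2a7 made up 6.27 ± 1.26% and 3.98 ± 0.475% in the P36 jejunum and 0.459 ± 0.0301% and 0.173 ± 0.0815% in the P6 ileum. Slc2a1 held 9.88 ± 5.70% in the P6 ileum, from 1.77% in replicate 4 to 15.1%, and less than 1% in each jejunum library. Khk, which was not part of the sum, stood at 69.8 ± 15.4 RPKM in the P6 jejunum and 378 ± 21.7 RPKM in the P36 jejunum. These RPKM values rest on the exon length of the count annotation, and a gene with unlisted exons would be misplaced among the others. The shares depend on the length scaling. By counts alone, Slc5a1 held 63.23 to 65.05% and Slc2a2 22.64 to 24.37% of the transporter counts in the P6 jejunum libraries.

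**Figure D4:**
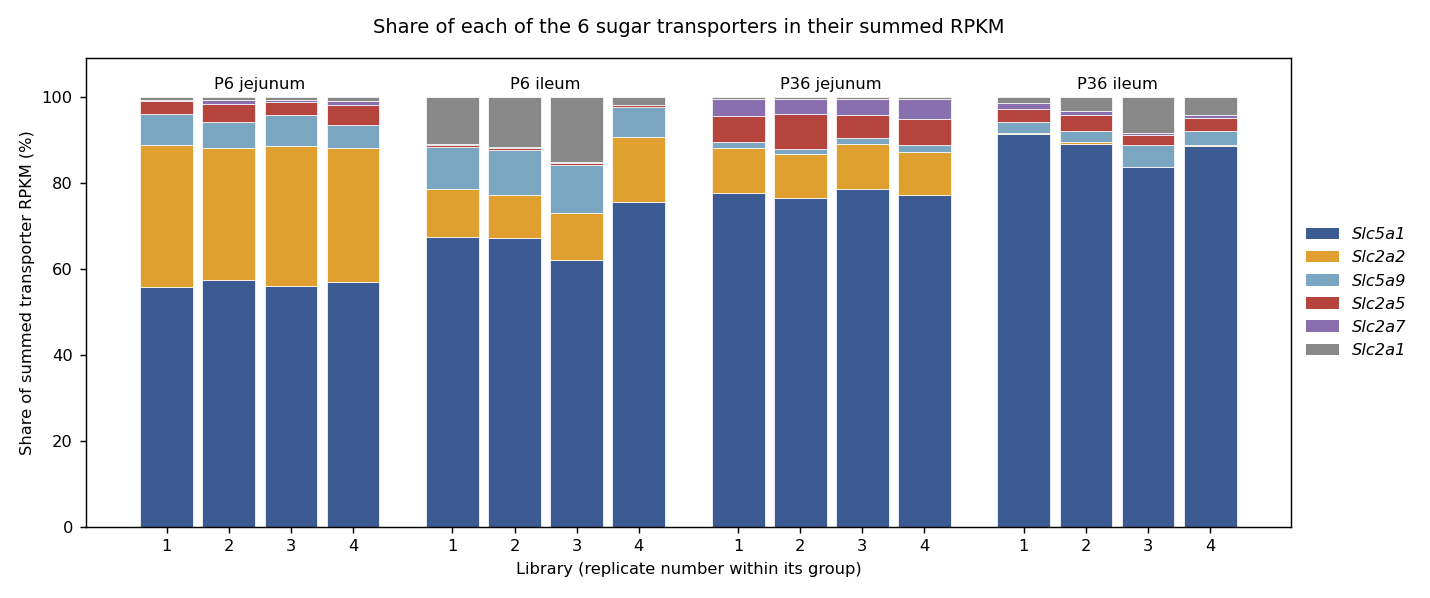
Stacked bars of each transporter's share (percent) of the summed RPKM of the 6 transporters, in every library. Slc5a1 is the largest segment in all 16 bars, the Slc2a2 segment is widest in the P6 jejunum at a mean of 31.8%, and replicate 4 of the P6 ileum has a narrow Slc2a1 segment beside the other libraries of its group.

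The P6 mice carried IDs with 2 different stems, shared by replicates 1 and 3 and by replicates 2 and 4, and the labels do not say what a stem means. In the P6 jejunum, replicates 2 and 4 were both above replicates 1 and 3 for Slc2a1, Slc2a2, Slc2a5, Slc2a7, Slc5a1 and Khk, 6 of the 7 genes, where 53.9% of all tested genes were separated by stem in either direction. The largest gap was that of Slc2a7, with means of 6.49 and 1.35 CPM. In the P6 ileum no member was separated in this way (37.9% of tested genes were). Sex was balanced within each stem. The refit without replicates 2 and 4 of the P6 ileum kept P6 ileum libraries of 1 stem, beside P6 jejunum libraries of both. Leaving out these libraries and leaving out their stem cannot be told apart in that refit. The Paneth cell markers separated by stem in both regions, with 806 and 568 CPM in replicates 1 and 3 of the P6 jejunum against 36.9 and 23.0 CPM in replicates 2 and 4, and 653 and 464 CPM against 44.0 and 48.2 CPM in the P6 ileum. The stem and proliferating cell markers separated in the P6 jejunum, at 667 and 658 CPM against 527 and 517 CPM. The part of these markers in the member values was not tested.

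The P36 ileum libraries also shared an order. Replicate 3 was the lowest for Slc2a2, Slc2a5, Slc2a7, Slc5a1, Slc5a9 and Khk, and replicate 1 the highest for all of these except Slc2a2. Slc2a1 did not share this order, with its lowest value in replicate 1 (21.2 CPM) and its highest in replicate 4 (32.5 CPM). Replicate 3 had the lowest enterocyte sum (2894 CPM) and the highest stem and proliferating cell sum (1495 CPM), and replicate 1 the highest enterocyte sum (22050 CPM). The 3 markers of jejunum summed to 4662 CPM in replicate 1, the highest, and 363 CPM in replicate 3, the lowest. The 3 markers of ileum were likewise highest in replicate 1 (9756 CPM) and lowest in replicate 3 (3886 CPM). The part of these marker differences in the member values was not tested. Without replicates 1 and 3, 6 members still passed between the regions at P36, and the log2 fold changes were 1.86 for Slc5a1, 2.97 for Slc2a5, 4.33 for Slc2a7, 6.77 for Slc2a2, 1.04 for Slc5a9 and 2.13 for Khk.

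Other genes that handle sugars were read from 8 lists, which held 72 symbols, 70 of them in the count files and 60 tested. Between the regions at P6, 8 of the 60 were higher and 11 lower in the jejunum (11.1% and 14.8% of all tested genes). At P36, 23 were higher and 4 lower (8.3% and 7.8% of all tested genes). With age, 30 rose and 12 fell in the jejunum (24.7% and 26.9% of all tested genes). In the ileum 31 rose and 15 fell (25.5% and 30.1%). The interaction was passed by 9 (8.69% of all tested genes), of which 8 had a regional log2 fold change that was more positive at P36.

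Among the other facilitative transporters, 7 of 9 were tested, and 3 were lower and none higher in the jejunum at P6. Of all tested genes, 14.8% were lower and 11.1% higher there. Slc2a13, which encodes a proton-coupled myo-inositol transporter, was higher in the ileum at both ages, with log2 fold changes for jejunum over ileum of -3.10 (adjusted p = 2.01e-06) and -3.04 (adjusted p = 4.35e-06). Slc2a12 fell with age by 2.74 (jejunum) and 4.57 (ileum) on the log2 scale, to at most 0.118 CPM in each P36 library. Slc2a10 and Slc2a9, which encodes a urate transporter, rose in both regions. Of the sodium-coupled relatives, 3 of 5 were tested. None differed between the regions at P6 (25.9% of all tested genes did), and all 3 were higher in the jejunum at P36 (8.3%). Slc5a4a and Slc5a4b are close paralogs, so the split of reads between them is uncertain. Slc5a4b held 2.20 to 4.11 CPM in the P6 jejunum and 145 to 245 CPM in the P36 jejunum, a rise of 6.07 on the log2 scale (adjusted p = 8.81e-06), and rose by 2.57 in the ileum (adjusted p = 0.00543). The ileal rise rested on replicate 1 of the P36 ileum, at 45.6 CPM against 6.64, 1.23 and 7.91 CPM in replicates 2 to 4 and 2.16 to 2.76 CPM at P6. Without that library it was 1.00 and did not pass (adjusted p = 0.0611). The interaction of -3.50 (adjusted p = 0.034) was called in 14 of 27 alternatives, with adjusted p up to 0.197, and was -5.07, still called, without replicate 1 of the P36 ileum.

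Genes of fructose breakdown and of the polyol route, which makes fructose from glucose through sorbitol, did not all change in the direction of Khk. Tkfc, encoding triokinase, which acts after Khk, rose 2.83-fold in the jejunum (adjusted p = 0.00085), and its ileal change of 0.66 did not pass (adjusted p = 0.0835). Tkfc was also low in replicate 4 of the P6 ileum, at 37.4 CPM against 127 to 155 CPM in the other 3. Sord, whose product makes fructose from sorbitol, fell by 0.85 in the jejunum (adjusted p = 0.0145) and by 1.07 in the ileum (adjusted p = 0.00319). The jejunal call was lost without replicate 2 of the P6 jejunum (-0.68, adjusted p = 0.057) and with P6 mice 1 and 3 only (-0.36, adjusted p = 0.218). Glyctk, encoding glycerate kinase, fell by 2.10 in the ileum (adjusted p = 0.00049), and Tpi1, encoding triose-phosphate isomerase, rose by 1.32 and 1.13 in the jejunum and ileum. In the whole list of 6 tested genes, 2 rose and 1 fell in the jejunum, and 2 rose and 3 fell in the ileum. Of all tested genes, 24.7% rose and 26.9% fell in the jejunum, and 25.5% rose and 30.1% fell in the ileum.

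Hk1 and Hk2, which encode hexokinases that phosphorylate glucose on entry, differed with age and between the regions. Hk2 lay at 1.83 to 2.66 CPM in the P6 jejunum, 7.06 to 8.95 CPM in the P6 ileum, 32.9 to 44.0 CPM in the P36 jejunum and 89.5 to 115 CPM in the P36 ileum, 4 ranges without overlap. It rose by 4.15 in the jejunum (adjusted p = 1.88e-11) and 3.64 in the ileum (adjusted p = 4.5e-11), and was lower in the jejunum by 1.87 at P6 (adjusted p = 3.11e-07) and 1.36 at P36 (adjusted p = 6.14e-06). Hk1 moved in the same directions, with rises of 3.04 and 2.31. Of the 12 tested genes of hexose phosphorylation and galactose entry, 6 rose and 4 fell in each region, among the rises Mpi (2.65 and 2.18) and Pgm1 (1.70 and 1.89), a symbol that annotations exchange with Pgm2. Of 13 tested glycolysis genes, 9 rose and 2 fell in the jejunum and 8 rose and 2 fell in the ileum. The rises included Pgk1, Pgam1, Pfkp and Ldha, by 1.04 to 1.43 in the jejunum and 0.82 to 1.36 in the ileum. The shares of all tested genes were 24.7% rising and 26.9% falling in the jejunum, and 25.5% and 30.1% in the ileum.

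Among 11 tested sugar-sensing genes and regulators, 4 passed with age in the jejunum, against 6 in the ileum. Of all tested genes, 51.6% passed with age in the jejunum and 55.7% in the ileum. Mlxipl, encoding the carbohydrate-response factor ChREBP, rose by 1.52 in the jejunum (adjusted p = 0.00104) and 1.32 in the ileum (adjusted p = 0.00274), and its partner gene Mlx rose by 1.36 and 0.90. The arrestin genes that ChREBP is known to activate did not rise together. Txnip lay at 374 to 513 CPM in the P6 jejunum and 364 to 538 CPM in the P36 jejunum (log2 fold change -0.0036, adjusted p = 0.99) and rose by 0.65 in the ileum (adjusted p = 0.011), a call lost with P6 mice 1 and 3 only (0.37, adjusted p = 0.0994). Arrdc4 fell by 2.12 in the jejunum (adjusted p = 6.34e-08) and by 3.60 in the ileum (adjusted p = 4.21e-10).

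Among the transport partners, Atp1b1, which encodes a subunit of the sodium pump, rose with age by 2.72 on the log2 scale in jejunum (adjusted p = 4.1e-08) and by 2.39 in ileum (adjusted p = 1.61e-07). Pdzk1ip1, whose product MAP17 is known as an accessory protein of a renal sodium-glucose cotransporter, moved the opposite way. It held 194 to 227 CPM in the P6 jejunum and 2.60 to 3.53 CPM in the P36 jejunum, and fell by 6.11 in the jejunum (adjusted p = 4.79e-09) and 5.32 in the ileum (adjusted p = 1.58e-08). Its level did not pass between the regions at either age.

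All 4 disaccharidase genes were tested. Lct, encoding lactase, held 4598 to 5948 CPM in the P6 jejunum, 367 to 1245 CPM in the P6 ileum and 1438 to 1720 CPM in the P36 jejunum. In the P36 ileum it was at 35.3, 22.9, 0.0817 and 6.17 CPM, the third value from replicate 3. Its ileal fall was 5.43 (adjusted p = 0.000123), while the jejunal change of -1.79 did not pass (adjusted p = 0.0665). The jejunum libraries nevertheless did not overlap between the ages. The jejunal change did not pass in 16 of 17 alternatives, with the adjusted p running from 2.99e-07 to 0.229. Sis, encoding sucrase-isomaltase, whose products include fructose, rose by 9.23 (jejunum) and 6.30 (ileum), from at most 26.6 CPM in any P6 library to 772 to 5722 CPM at P36. Mgam, encoding maltase-glucoamylase, was lower in the jejunum by 2.52 at P6 (adjusted p = 1.75e-06) and higher by 0.92 at P36 (adjusted p = 0.0114), with an interaction of -3.44 (adjusted p = 8.34e-06). For Sis the regional difference was -1.24 at P6 (adjusted p = 0.0348) and 1.68 at P36 (adjusted p = 0.00931), with an interaction of -2.92 (adjusted p = 0.00424). The P6 call held in 10 of 19 alternatives, with adjusted p up to 0.187, and mouse 2 had about the same Sis level in the jejunum (7.99 CPM) and the ileum (7.88 CPM). The interaction was lost with P6 mice 2 and 4 only (adjusted p = 0.0552). Treh, encoding trehalase, rose by 6.99 and 6.45.

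**Figure D5:**
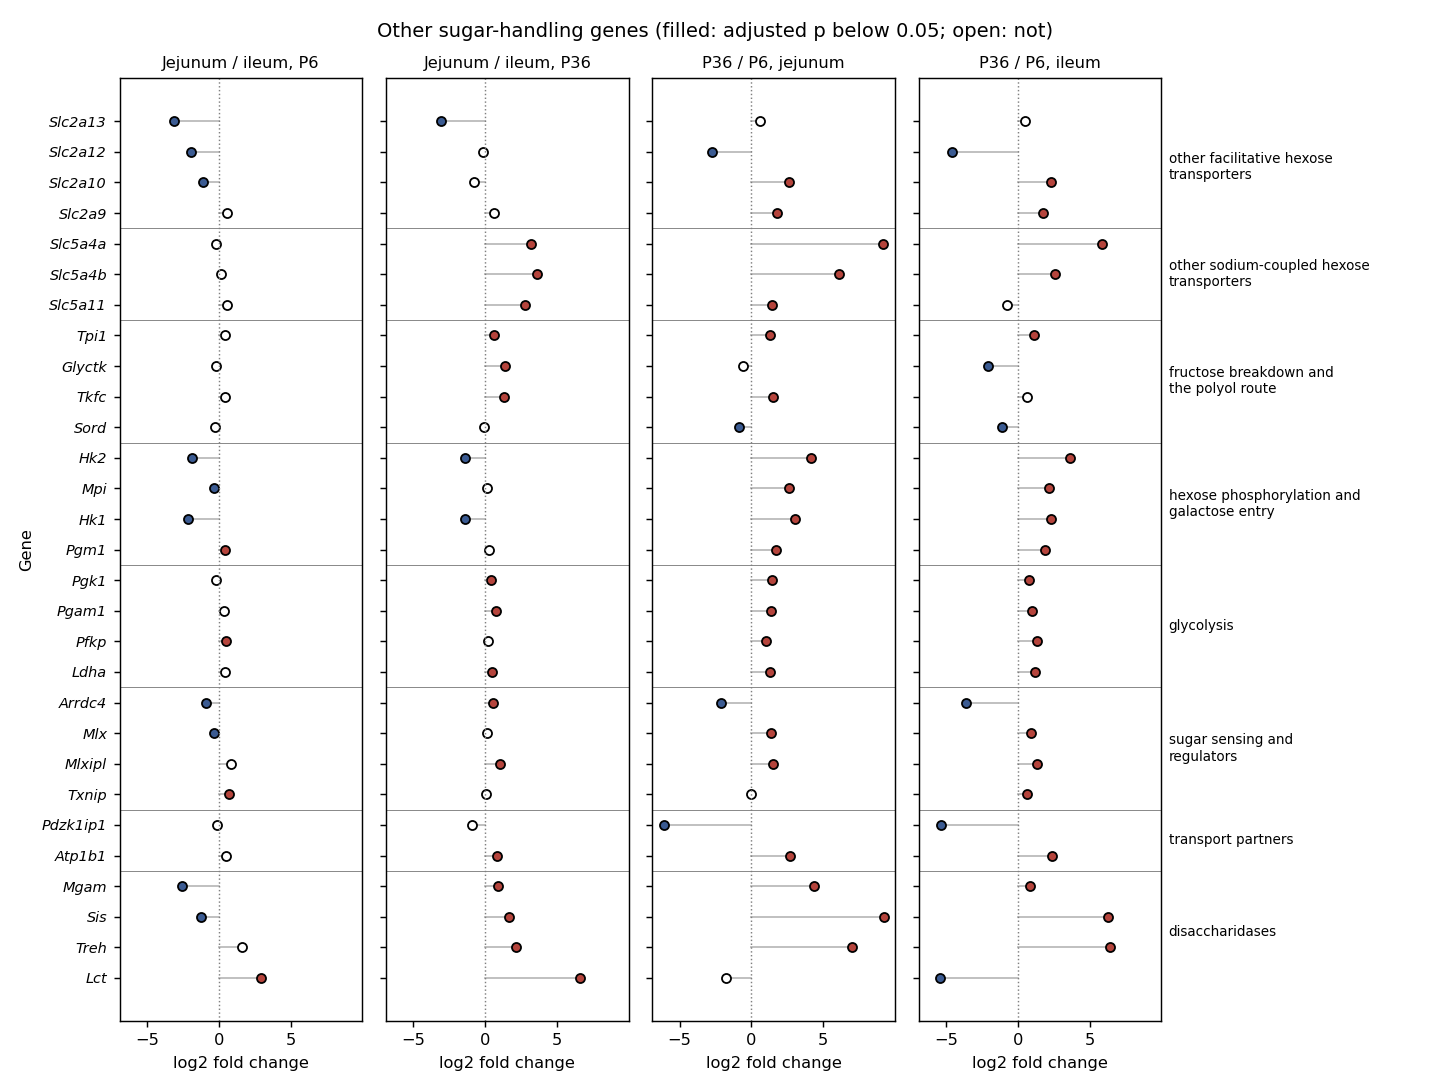
Log2 fold changes of 29 other sugar-handling genes in the 4 pairwise comparisons, grouped by list (filled: passed; open: did not pass). Hexokinases and glycolysis genes lie to the right with age in both regions, Pdzk1ip1 and Arrdc4 to the left, and Sis and Mgam change sides between the regional panels.

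The genes whose log2 CPM followed each member most closely over the 16 libraries were found by Pearson's r, which here mainly reflects the 4 groups that all genes share and is given without a test. For Slc2a2 the nearest gene was Lct (r = 0.968), followed by Cnpy1 and Entpd7. For Slc2a5 it was Mme (0.984), which encodes the brush border peptidase neprilysin, followed by Cda and Fam3c. Slc5a1 was nearest to Dgat1 (0.99), which encodes an enzyme of triglyceride synthesis, then to Ppap2a and Tm4sf5, and Slc2a7 to Gdpd2 (0.984), Ppap2a and Rdh7. Khk was nearest to Acbd4 (0.989), Scarf1 and Mdh2, the last encoding mitochondrial malate dehydrogenase. The nearest genes of Slc5a9 were Tfg (0.967), Naa60 and Pbld1. Slc2a1 had the weakest neighbours, Fpgs (0.926), Guca2a (0.916), which encodes guanylin, and Sun2 (0.914). Guca2a had mean levels of 122 and 1150 CPM in the P6 jejunum and ileum and 200.4 and 604 CPM at P36, which put the groups in the same order as Slc2a1.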

How the data were processed

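The authors used a stranded mRNA kit (Kapa), Trimmomatic 0.38 for trimming, STAR (2.5.3 in the submitters' processing notes) for alignment to mm10, and featureCounts (Subread 1.6.3, reverse strand) for counting read pairs on UCSC mm10 exons. The deposited values were raw counts per gene, not normalized, and the deposited exon lengths served for RPKM. All 16 libraries entered 1 quasi-likelihood fit with 4 group means and no block (edgeR 4.0.16, R 4.3.3), after filterByExpr and TMM scaling. An SE is the absolute log2 fold change over the square root of F. Log2 CPM for correlations used a prior count of 2.

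Jejunum and ileum libraries are paired by mouse in the labels, and their deviations from the group means were checked (Pearson's r across genes 0.157 to 0.391 in the 8 mice). No replicates were copies of each other (chi-square per gene 14.0 to 292).

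The members and lists were chosen with earlier results of these data known. Named beyond the members are the 4 genes per list with the lowest adjusted p (fewer where fewer passed), with Tkfc, Hk2, Sord, Mlxipl, Txnip, Lct and Sis, and the 3 genes most correlated with each member. A few genes that the rule names are left out here. Alternatives were DESeq2 1.42.0, median-of-ratios factors, library totals, no filter, a minimum mean CPM of 1, fits restricted to the 8 libraries of a comparison, a sex term, the mouse as a block and each library left out. Leaving out pairs of ileum libraries and keeping P6 mice of 1 ID stem were chosen after seeing the data.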

Additional observations from a re-analysis of the deposited data

Results flagged for a closer look

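Each group of each member was searched for a library far from the other 3, a search of 28 groups in which chance alone flags about 1 in 20. It pointed at replicate 4 of the P6 ileum for a pair of genes. Slc2a2 stood at 61.5 CPM there, against 34.1 to 37.9 CPM in the other P6 ileum libraries, so that the gap was 0.862 of the whole range. Slc5a1 stood at 472 CPM, against 327 to 346 CPM (0.87 of the range). Without this library the regional difference at P6 was 3.16 for Slc2a2 and 1.39 for Slc5a1 on the log2 scale, and both passed (adjusted p = 0.000121 and 0.00558).

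The regional difference of Slc2a2 changed with age. Its interaction of -4.19 (adjusted p = 9e-04) stood for a jejunum-to-ileum difference of 2.93 at P6 and 7.12 at P36, and it passed in all 27 alternatives (-4.60 to -3.75).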

How the results depend on the processing

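No member fold change that passed reversed its direction under any alternative. The count of members passing the interaction was 1, and it was 2 with DESeq2, without replicates 2 and 4 of the P6 ileum, without replicates 1 and 3 of the P36 ileum, and with P6 mice 1 and 3 only. It ran from 1 to 2 when single libraries were left out. The count of pathway genes passing the interaction was 9, and it was 16 with DESeq2, 14 with library totals, 15 without replicates 2 and 4 of the P6 ileum and 4 with P6 mice 2 and 4 only. It ran from 5 to 18 when single libraries were left out, from 5 without replicate 1 of the P36 jejunum to 18 without replicate 4 of the P6 ileum. The count of pathway genes passing between the regions at P6 was 19, and it was 11 with P6 mice 1 and 3 only and 10 with P6 mice 2 and 4 only. The cause of these shifts was not tested. The fits that left libraries out or kept 1 ID stem also held fewer libraries. Scaling by library totals moved the median log2 fold change of all genes by -0.29 and -0.14 between the regions at P6 and P36 and by -0.15 in the interaction, and it changed no direction of a member that passed.

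With the mouse as a replicate block, 7 members passed at P6, 6 at P36 and 1 in the interaction, where Slc2a2 was at -4.43 (adjusted p = 0.00469), and the block changed no call of a member. The numbers of pathway genes were 18, 25 and 9. The block could not be fitted to the comparisons of age, where each mouse has 1 age. The depth limits Slc2a7 in the P6 ileum (31 counts) and Slc2a2 in the P36 ileum (160 counts), whose fold changes depend on few reads.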
